A study of Homo sapiens with 4 samples.

Results

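The 9 genes MACF1, DST, UTRN, SPTAN1, SPTBN1, FLNA, PLEC, AHNAK and TLN1 encode very large proteins that link or scaffold the cytoskeleton. They were taken by symbol from the 57979 genes with values in the deposited expression table, each symbol stood on a single line, and all 9 were among the 13246 genes with an average above 1 FPKM that were tested. FPKM is the number of fragments mapped to a gene, scaled to transcript length and to the fragments of the library. Polyadenylated RNA was sequenced from cells labelled HepG2, a human liver cancer line, in 2 wild-type libraries and in 2 libraries of TXNDC9 knockout cells. The knockout was made with CRISPR-Cas9 from a lentiviral plasmid carrying a guide against the first exon of TXNDC9, a cofactor of the chaperonin that folds actin and tubulin. All cells grew in DMEM with serum. For its protein blots the study sorted infected cells by flow cytometry. Which guide was used for these libraries, whether their cells were sorted and whether the cells were a clone or a pool are not given in the sources used here. Nothing in the labels says that the replicates came from separate cultures, so the p-values measure the spread between these libraries, which may be technical.

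The proteins fall into a few families. MACF1 and DST (dystonin) are spectraplakins, which join actin filaments to microtubules, and PLEC (plectin) is a plakin that ties intermediate filaments to actin and to adhesion sites. SPTAN1 and SPTBN1 are the alpha and beta chains of the non-erythroid spectrin tetramer under the plasma membrane, and UTRN (utrophin) is the widely expressed relative of dystrophin that binds actin and the dystroglycan complex. FLNA (filamin A) crosslinks actin filaments into networks, and TLN1 (talin) connects integrins to actin and activates them. AHNAK is a repeat-rich giant scaffold that binds the complex of S100A10 and annexin A2.

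In the canonical transcripts of GENCODE release 44 on hg38, the messages ran from 7875 nt for SPTAN1 to 24709 nt for DST, against a median of 2866.5 nt over the tested genes. MACF1 (ENSG00000127603) lies on chromosome 1 from 39081316 to 39487177 and codes for 7555 residues in 101 exons. UTRN (ENSG00000152818), on chromosome 6 from 144285335 to 144853034, has 75 exons and 3433 residues. DST (ENSG00000151914) lies on the other arm of chromosome 6, from 56457987 to 56954830, with 104 exons and 7818 residues. SPTAN1 (ENSG00000197694) is on chromosome 9 from 128552558 to 128633662, and TLN1 (ENSG00000137076) on the same chromosome from 35696948 to 35732195. SPTBN1 (ENSG00000115306) lies on chromosome 2 from 54456317 to 54671446. FLNA (ENSG00000196924) is the most compact locus, on chromosome X from 154348524 to 154374634 (26.1 kb with 48 exons). AHNAK (ENSG00000124942), on chromosome 11 from 62433542 to 62556235, has 5 exons that code for 5890 residues. The GC content of the transcripts ran from 41.6% in DST to 66.8% in PLEC. SPTAN1 overlaps the coding gene DYNC2I2, and every other member overlaps only non-coding annotated genes. The use of strand in counting is not given in the sources used here, so reads of an antisense neighbour cannot be told apart from those of the member.

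RefSeq promoter windows (GRCh38.p14, 250 bases before to 50 bases after a start site) were found for 8 of the 9 genes, 14 windows in all, and not for PLEC. The windows of the 4 genes whose RNA changed by at least 2-fold are shown because these genes moved in opposite directions. Each reads 5′ to 3′ along the gene, and capitals mark matches to 6 motifs on either strand: the CArG box of SRF by its name, CACGTG (E-box), TGANTCA (AP-1), GGAATG (TEAD), GGGCGG (SP1) and CCAAT (NF-Y). The FLNA window lies at chrX:154374585-154374884 on the minus strand, SPTAN1 at chr9:128552337-128552636 on the plus strand, UTRN at chr6:144285085-144285384 on the plus strand and AHNAK at chr11:62545777-62546076 on the minus strand, a start inside the annotated locus.
FLNA: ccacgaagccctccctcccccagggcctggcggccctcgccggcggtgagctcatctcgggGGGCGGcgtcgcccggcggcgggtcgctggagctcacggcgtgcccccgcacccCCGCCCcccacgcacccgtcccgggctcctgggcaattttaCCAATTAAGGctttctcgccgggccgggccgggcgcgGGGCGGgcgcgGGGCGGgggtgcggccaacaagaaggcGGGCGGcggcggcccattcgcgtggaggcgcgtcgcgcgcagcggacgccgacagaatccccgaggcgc
SPTAN1: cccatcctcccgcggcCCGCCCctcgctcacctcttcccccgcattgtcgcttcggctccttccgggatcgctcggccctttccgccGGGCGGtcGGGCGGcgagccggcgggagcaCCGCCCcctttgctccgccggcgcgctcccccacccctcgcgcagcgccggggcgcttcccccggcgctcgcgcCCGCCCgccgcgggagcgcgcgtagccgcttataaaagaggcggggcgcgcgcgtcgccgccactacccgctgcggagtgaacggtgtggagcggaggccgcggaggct
UTRN: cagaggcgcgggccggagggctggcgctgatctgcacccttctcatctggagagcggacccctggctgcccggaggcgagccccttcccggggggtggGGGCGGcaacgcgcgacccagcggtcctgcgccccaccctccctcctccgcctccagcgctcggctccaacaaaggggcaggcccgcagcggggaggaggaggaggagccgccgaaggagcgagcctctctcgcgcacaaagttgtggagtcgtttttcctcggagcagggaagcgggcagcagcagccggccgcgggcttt
AHNAK: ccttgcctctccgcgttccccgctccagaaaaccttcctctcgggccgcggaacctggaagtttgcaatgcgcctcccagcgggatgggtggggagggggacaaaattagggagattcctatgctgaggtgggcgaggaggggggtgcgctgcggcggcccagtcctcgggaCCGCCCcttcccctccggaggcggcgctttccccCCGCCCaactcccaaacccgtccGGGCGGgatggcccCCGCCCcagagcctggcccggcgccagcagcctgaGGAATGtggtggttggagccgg

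These windows were rich in G and C, with 78.3% in FLNA, 78.0% in SPTAN1, 72.3% in UTRN and 70.0% in AHNAK, against a median of 58.7% over all 35116 windows. A CArG box match stood in the FLNA window and in no other member window, and 1.29% of all windows held such a match. It overlaps the CCAAT match of the same window. The GGGCGG motif was found in 9 of the 14 member windows, with at least 1 for each of the 8 genes, and 45.0% of all windows held it. It matched at 5 places in FLNA, 5 in SPTAN1, 4 in AHNAK and 1 in UTRN. A GGAATG match was found in 3 of the 14 member windows (AHNAK, DST and MACF1), where 14.0% of all windows held it. TGANTCA was found in 2 of the 14 member windows (DST and MACF1, against 7.71% of all windows) and CACGTG in 1 (DST, against 7.26%). CCAAT matches stood in 4 of the 14 member windows (DST, FLNA, MACF1 and UTRN), and 34.6% of all windows held that motif. For UTRN the match lies in a window not shown. These matches are letters only, and no binding was measured.

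The summed FPKM was between 805816 and 971102 in the wild-type libraries and between 535973 and 568279 in the knockout libraries, and the depth is unknown because no counts were used. Defining hepatocyte genes were nearly absent from the cells labelled HepG2: all 7 of ALB, AFP, APOA1, APOB, TTR, SERPINA1 and HNF4A were under 1 FPKM in every library, with a highest value of 0.449 FPKM (AFP). APOA1 was listed at 0 in all 4 libraries. The summed level of these markers was 0.351 to 0.624 FPKM in wild-type and 0.0479 to 0.120 FPKM in knockout libraries. Of the 3 fibroblast or stellate markers, none was under 1 FPKM throughout, and their sums were 47.5 to 51.9 FPKM in wild-type and 33.3 to 37.1 FPKM in knockout libraries. COL1A1 (22.8 to 31.5 FPKM against 17.5 to 20.7 FPKM) and COL3A1 (19.4 to 24.004 FPKM against 13.1 to 13.4 FPKM) carried these sums, while PDGFRB went the other way (0.735 to 1.08 FPKM against 2.62 to 3.004 FPKM). The 3 endothelial markers summed to 0.803 to 1.22 FPKM in wild-type and 3.42 to 4.41 FPKM in knockout libraries, nearly all of it CDH5, with PECAM1 and VWF at most 0.261 FPKM. The 3 leukocyte markers summed to 3.42 to 5.34 FPKM and 5.96 to 7.04 FPKM, nearly all of it CD68, with PTPRC at most 0.192 FPKM and CD3E listed at 0 throughout. The 3 muscle markers were at most 0.178 FPKM each. What part these shifts have in the results was not tested, and fewer cells of a type and less RNA per cell cannot be told apart in bulk RNA. TXNDC9 itself was 35.1 and 37.3 FPKM in wild-type libraries against 21.9 and 27.6 FPKM in knockout libraries, a log2 fold change of −0.55 (limma, adjusted p = 0.0145) that did not pass the threshold of 0.01. In TPM, which sets the sums of all libraries equal, its log2 fold change was 0.12, so its direction depends on the scaling.

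FLNA and SPTAN1 stood far above the other members in wild-type cells. FLNA was 593 and 894 FPKM and SPTAN1 256 and 369 FPKM in the 2 wild-type libraries. Together they made up 82.3% and 87.3% of the summed FPKM of the 9 genes. DST followed at 39.5 ± 1.18 FPKM (SD, n = 2) and PLEC at 36.1 ± 0.638 FPKM. TLN1, MACF1 and SPTBN1 came next at 31.8 ± 1.58, 30.8 ± 3.90 and 30.03 ± 1.97 FPKM, and their libraries overlapped, so the order among these 3 is not beyond their spread. AHNAK was at 14.0 ± 0.676 FPKM and UTRN at 0.937 ± 0.115 FPKM. The highest member exceeded the lowest by 582-fold and 1045-fold in the wild-type libraries.

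In knockout cells the same 2 genes led but the range was narrower. FLNA was at 190.1 ± 12.2 FPKM and SPTAN1 at 86.0 ± 2.54 FPKM (SD, n = 2), and the pair made up 51.4% and 52.9% of the sum. PLEC stood at 53.1 ± 1.92, MACF1 at 49.8 ± 1.12, DST at 40.7 ± 4.17 and SPTBN1 at 39.4 ± 1.82 FPKM, where DST and SPTBN1 overlapped. AHNAK was at 33.2 ± 0.327, TLN1 at 29.0 ± 1.24 and UTRN at 8.01 ± 0.253 FPKM. The highest member exceeded the lowest by 23.2-fold and 24.3-fold. The sum over the other 7 genes was 182 and 184 FPKM in wild-type libraries against 251 and 255 FPKM in knockout libraries.

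**Figure D1:**
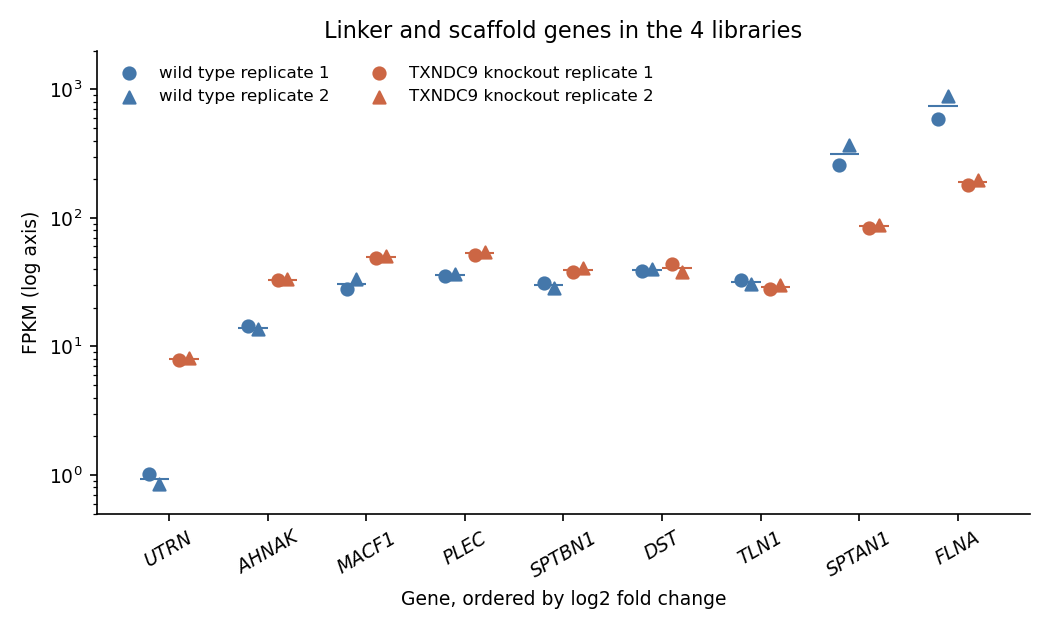
FPKM of the 9 genes in each library on a log axis, ordered by log2 fold change, with wild-type libraries in blue, TXNDC9 knockout libraries in orange and short lines at the group means. UTRN rose from 0.937 to 8.01 FPKM and FLNA fell from 744 to 190.1 FPKM, while the 2 groups of DST overlap.

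The comparison of knockout with wild-type cells asks whether RNA of these linkers changes when TXNDC9 is targeted. To be called, a gene needed at least a 2-fold change with an adjusted p below 0.01, from limma on log2(FPKM + 0.1), a scale that understates the change of low genes. Of the 9 genes 2 rose (UTRN and AHNAK), 2 fell (FLNA and SPTAN1) and 5 were not called. Over all tested genes, 14.2% were called higher and 15.3% lower. The median log2 fold change was 0.39 over the members and −0.09 over all tested genes. Both knockout values lay above both wild-type values for 5 members and below them for 3, and the groups of DST overlapped. Over all tested genes these shares were 40.1% above and 45.9% below. With 2 libraries a group the smallest p of an exact two-sided permutation test is 0.33, and the adjusted p-values rest on the spread that limma shares across genes. When either knockout library was left out, limma called 0 genes of the whole table at the adjusted threshold, in a fit that assumes the lone library to vary like the other group. The same 4 members still changed by at least 2-fold in these fits. Without knockout replicate 1 or 2 the log2 fold change was 3.002 or 2.938 for UTRN and 1.245 or 1.225 for AHNAK. It was −1.873 or −2.004 for FLNA and −1.805 or −1.865 for SPTAN1.

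UTRN had the largest change of the 9. It was 1.02 and 0.856 FPKM in wild-type libraries against 7.83 and 8.19 FPKM in knockout libraries. Both knockout values were far above both wild-type values. The difference was 8.54-fold in FPKM and 2.97 on the log2 scale (standard error 0.17, limma, adjusted p = 4.87e-04), which ranked 130 from the top of the 13246 tested genes. UTRN passed the filter on low values only through its knockout libraries, since its wild-type average was under 1 FPKM. With a filter at an average of 5 FPKM it was not tested.

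AHNAK was 14.5 and 13.6 FPKM in wild-type libraries against 32.9 and 33.4 FPKM in knockout libraries. The replicates of each group were close together and the groups were well apart. The rise was 2.36-fold, with a log2 fold change of 1.24 (standard error 0.10, limma, adjusted p = 5.38e-04). Its rank was 1457 from the top. The call did not hold once trends with transcript length and GC content had been removed from each library by loess, where the log2 fold change was 0.53 (limma, adjusted p = 0.00494), short of a 2-fold change.

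FLNA fell from 593 and 894 FPKM in the wild-type libraries to 181 and 199 FPKM in the knockout libraries. Both knockout values were far below both wild-type values, although the wild-type libraries themselves differed by 0.59 on the log2 scale. The log2 fold change was −1.94 (standard error 0.22, limma, adjusted p = 9.60e-04), a 3.91-fold fall in FPKM and rank 298 from the bottom of all tested genes.

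SPTAN1 moved in the same way. It was 256 and 369 FPKM in wild-type libraries against 84.3 and 87.8 FPKM in knockout libraries, 3.63-fold lower in the knockout. The log2 fold change was −1.83 (standard error 0.19, limma, adjusted p = 7.90e-04). As for FLNA, wild-type replicate 2 was the higher of the pair, by 0.53 on the log2 scale, while the other 7 members differed between the wild-type libraries by −0.23 to 0.26. Leaving out any single library kept the log2 fold change between −2.10 and −1.57 for SPTAN1 and between −2.23 and −1.64 for FLNA.

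The remaining members changed by less than 2-fold. MACF1 was 28.1 and 33.6 FPKM in wild-type libraries against 49.0 and 50.6 FPKM in knockout libraries, a log2 fold change of 0.70 (standard error 0.12, limma, adjusted p = 0.00395). PLEC (ENSG00000178209, chromosome 8 from 143915153 to 143976734) was 35.6 and 36.5 FPKM in wild-type libraries against 51.7 and 54.4 FPKM in knockout libraries (log2 fold change 0.56, standard error 0.10, limma, adjusted p = 0.00398). Both differed beyond the spread between replicates at the adjusted p but not by the fold that a call required. SPTBN1, the beta chain that pairs with SPTAN1, was 31.4 and 28.6 FPKM in wild-type libraries against 38.1 and 40.7 FPKM in knockout libraries, with a log2 fold change of 0.39 (limma, adjusted p = 0.0190). DST, the other spectraplakin, was 38.7 and 40.3 FPKM in wild-type libraries against 43.6 and 37.7 FPKM in knockout libraries. Its groups overlapped, and its log2 fold change was 0.04 (limma, adjusted p = 0.777). TLN1 was 32.9 and 30.6 FPKM in wild-type libraries against 28.1 and 29.8 FPKM in knockout libraries, with a log2 fold change of −0.13 (limma, adjusted p = 0.289). Its groups did not overlap, but the gap was within the spread that limma assigns to the gene.

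Rescaling to TPM raised every log2 fold change, because the knockout libraries summed to less. It moved the median of all tested genes from −0.09 to 0.59, and the median of the members to 1.07. On this scale MACF1 (1.38), PLEC (1.24) and SPTBN1 (1.07) were called higher beside AHNAK (1.91) and UTRN (3.66), while FLNA (−1.26) and SPTAN1 (−1.16) were still called lower. TLN1 turned to 0.55 (limma, adjusted p = 0.0145), below the shift of all genes. The direction of TLN1 therefore depends on the scaling, and those of UTRN, AHNAK, FLNA and SPTAN1 were the same on both scales.

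Long transcripts as a class were higher in the knockout libraries, so the members were also set beside genes of their own size. Of 981 tested genes with a canonical transcript of 7875 nt or more, 44.4% were called higher and 2.55% lower, and their median log2 fold change was 0.91. Genes are not independent replicates, but as a description over 13112 of them Spearman's rho between log2 fold change and length of the transcript was 0.495, and −0.462 for its GC content. Across the 9 members the same descriptions were 0.617 and −0.50. AHNAK stood at rank 358 from the top of the 981 long genes, MACF1 at 575, PLEC at 632, SPTBN1 at 693, DST at 798 and TLN1 at 852. UTRN stood at rank 12 from the top. FLNA was at rank 2 and SPTAN1 at rank 6 from the bottom.

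**Figure D2:**
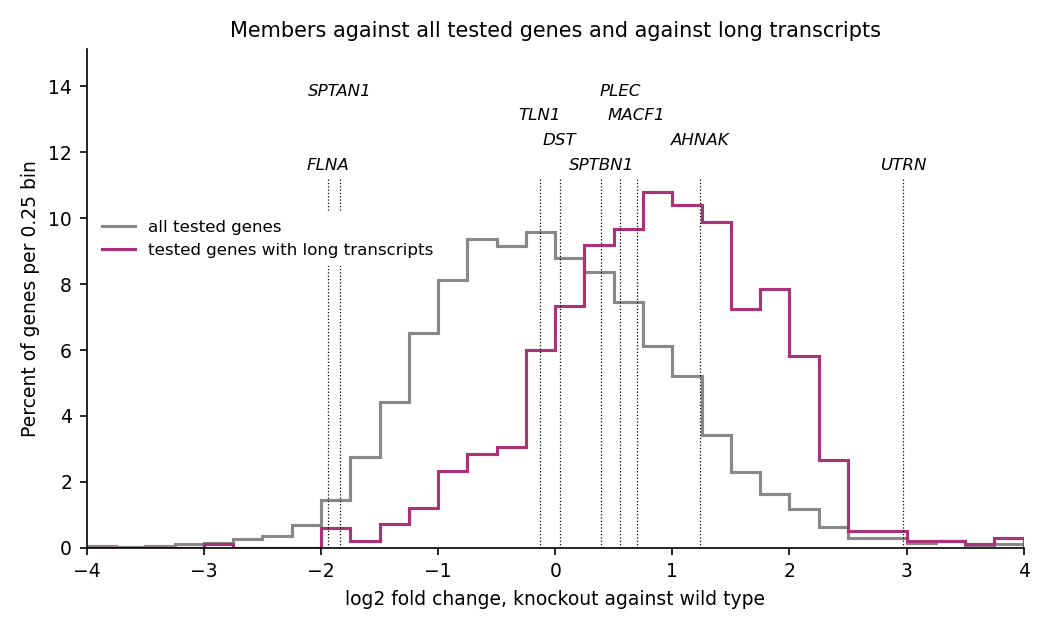
Percent of genes per bin of 0.25 log2 units in the log2 fold change of knockout against wild type, for all 13246 tested genes (grey) and for the 981 with transcripts of 7875 nt or more (purple), with the 9 members as dotted lines. The long genes centre on 0.91 and all genes on −0.09, FLNA and SPTAN1 lie in the lower tail of both, and 80 genes beyond 4 in either direction are not drawn.

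A fit with each library centred on the median of these long genes gave UTRN a log2 fold change of 1.98, AHNAK 0.24, MACF1 −0.30, PLEC −0.44, SPTBN1 −0.60, DST −0.95, TLN1 −1.12, SPTAN1 −2.83 and FLNA −2.93. UTRN, FLNA and SPTAN1 kept their calls, AHNAK did not (limma, adjusted p = 0.0694), and TLN1 was called lower (limma, adjusted p = 3.23e-04). With the loess trends in length and GC content removed, UTRN was at 1.96 (limma, adjusted p = 0.00129), FLNA at −1.92 (limma, adjusted p = 0.00198) and SPTAN1 at −2.24 (limma, adjusted p = 0.00124). PLEC, the member richest in G and C, was at 0.68, and DST, the poorest, at −0.97 (limma, adjusted p = 0.00167), just short of a 2-fold fall. The direction for MACF1, SPTBN1 and DST turned from positive to negative under both. UTRN, FLNA and SPTAN1 were thus the members whose calls held with and without account of transcript length.

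**Figure D3:**
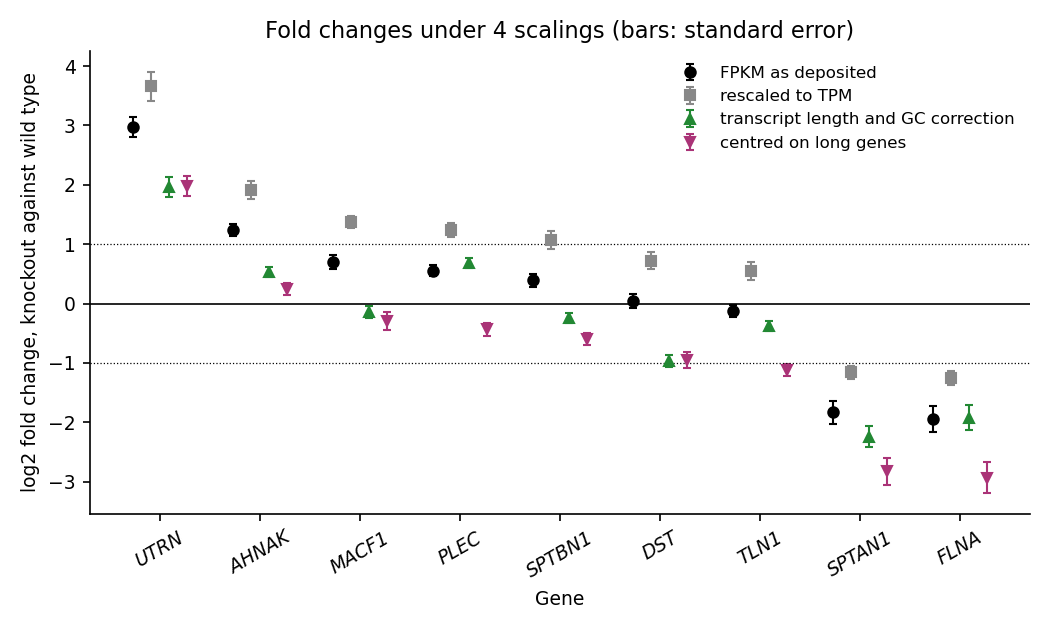
Log2 fold change of knockout against wild type for the 9 genes with FPKM as deposited (black), rescaled to TPM (grey), corrected for transcript length and GC content (green) and centred on long genes (purple), with bars for the standard error and dotted lines at a 2-fold change. UTRN lies above the upper line and FLNA and SPTAN1 below the lower line under all 4.

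Ratios within a library do not depend on how libraries are scaled. The alpha chain SPTAN1 exceeded the beta chain SPTBN1 by 8.15-fold and 12.9-fold in FPKM in the wild-type libraries and by 2.21-fold and 2.16-fold in the knockout libraries. The geometric mean of the wild-type ratios was 4.69 times that of the knockout ratios. The ratio of UTRN to its relative DMD (dystrophin) was 0.217 and 0.188 in wild-type and 0.628 and 0.601 in knockout libraries. TLN1 to VCL (vinculin, which binds stretched talin) went from 1.28 and 1.54 to 0.70 in both knockout libraries. The ratio of AHNAK to S100A10, picked after its values were seen, was 0.0321 and 0.02003 in wild-type and 0.198 and 0.185 in knockout libraries. For all of these pairs the wild-type and knockout ratios did not overlap, but the share of all gene pairs for which this holds was not computed. Among all single genes tested, both knockout values lay above both wild-type values for 40.1% and below them for 45.9%. No test was made of a ratio, and the part of transcript length in these ratios was not tested.

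**Figure D4:**
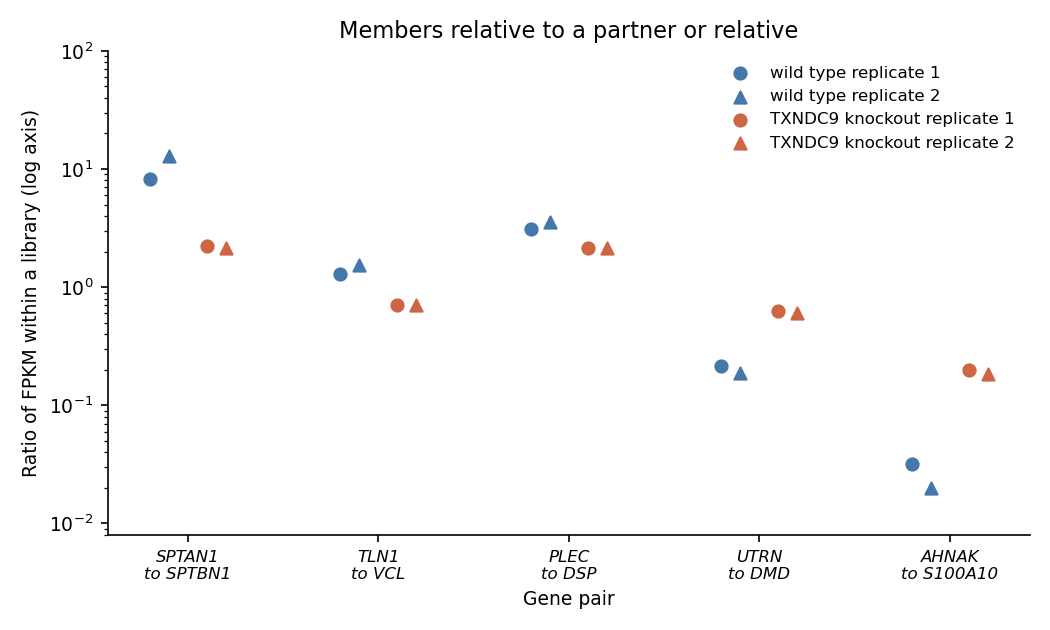
Ratio of FPKM within a library for 5 gene pairs on a log axis, with wild-type libraries in blue and TXNDC9 knockout libraries in orange. SPTAN1 to SPTBN1 drops from 8.15 and 12.9 to 2.21 and 2.16, and UTRN to DMD rises from 0.217 and 0.188 to 0.628 and 0.601.

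Partners and relatives of the members were read from 8 lists with 84 genes, of which 65 were tested. Of these, 18 rose, 9 fell and 38 were not called, with a median log2 fold change of 0.18. Beside the 14.2% higher and 15.3% lower over all tested genes, these counts are a description of the lists. The 2 largest changes of each list and the direct counterparts of the members are given by rule, and other partners are named after their values were seen. After the length and GC correction 7 were called higher and 5 lower, and in TPM 28 higher and 2 lower.

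In the spectrin network 10 of 19 genes were tested, of which 5 rose and 2 fell. ADD3, an adducin that caps actin at the spectrin junction, rose from 4.08 and 2.79 FPKM to 10.7 and 11.3 FPKM, a log2 fold change of 1.67 (limma, adjusted p = 0.00104). ADD1, another adducin, fell by 1.27 on the log2 scale. Of the 6 tested genes of the EPB41 family, named for a membrane skeleton protein that links spectrin and actin to the membrane, EPB41, EPB41L1, EPB41L4A and EPB41L5 rose by 1.05 to 1.57 on the log2 scale. EPB41L2 was at −0.06 and EPB41L4B at 0.05, neither of them called. After the length and GC correction EPB41 was at 0.99, EPB41L1 at 0.76, EPB41L4A at 0.82 and EPB41L5 at 0.70, all short of a 2-fold change. The ankyrins ANK1, ANK2 and ANK3 were too low to be tested.

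All 4 other plakins were called, 3 higher and 1 lower, and after the length and GC correction 2 were called higher and 0 lower. EPPK1 (epiplakin) rose from 0.427 and 0.400 FPKM to 2.25 and 2.23 FPKM, a log2 fold change of 2.19, and passed the filter only through the knockout libraries. DSP, the desmosomal linker of intermediate filaments, rose by 1.18 on the log2 scale, and PPL (periplakin) rose from 8.08 and 6.07 FPKM to 14.2 and 14.04 FPKM. The length and GC correction gave DSP 0.41 (limma, adjusted p = 0.0148). EVPL (envoplakin), which pairs with periplakin, fell from 11.8 and 18.8 FPKM to 6.58 and 6.33 FPKM, a log2 fold change of −1.19 (limma, adjusted p = 0.00491). Its call was lost after the length and GC correction (−0.92, limma, adjusted p = 0.0221), in TPM (−0.52), without the filter on low values (adjusted p = 0.0252) and without the variance trend (adjusted p = 0.0134). The value of EVPL rests on the wild-type libraries, at −1.52 without replicate 1 and −0.86, under a 2-fold change, without replicate 2.

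Among 3 tested filamin and actinin relatives limma called 0, and 2 had an unadjusted p under 0.05. The actin crosslinker ACTN4 was 258 and 257 FPKM in wild-type libraries against 310 and 325 FPKM in knockout libraries, a log2 fold change of 0.30 (limma, adjusted p = 0.0653). In the dystrophin complex 3 of 8 tested genes rose and 0 were called lower by limma, where 2 were lower by less than 2-fold at an unadjusted p under 0.05, DTNB among them (−0.70, adjusted p = 0.00415). DMD rose by 1.48, the syntrophin SNTB2 by 1.34 and DAG1, the dystroglycan precursor that utrophin binds, by 1.17 on the log2 scale. After the length and GC correction DMD was at 0.43 and SNTB2 at 0.33, while DAG1 was at 1.03 (limma, adjusted p = 0.00144).

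Among integrin adhesion adaptors 19 of 20 were tested, with 2 called higher, 3 lower and 14 not called. ZYX (zyxin), a LIM protein of stressed actin fibres, fell from 128 and 149 FPKM to 40.7 and 42.7 FPKM, a log2 fold change of −1.72 (limma, adjusted p = 5.12e-04), and was at −0.89 after the length and GC correction, short of a 2-fold change. PARVB, a parvin of the complex with ILK, fell by 1.30 on the log2 scale. It was at −0.62 in TPM, short of a 2-fold change, and at −1.52 after the length and GC correction. VCL was 25.7 and 19.9 FPKM in wild-type libraries against 40.1 and 42.6 FPKM in knockout libraries, a log2 fold change of 0.87 (limma, adjusted p = 0.00344), under a 2-fold change, and TLN2, the other talin, was at 0.47 with overlapping groups (limma, adjusted p = 0.197). Of the AHNAK partners, S100A10 fell from 452 and 677 FPKM to 166 and 180.4 FPKM, a log2 fold change of −1.68 (limma, adjusted p = 0.00133), which in TPM was just short of a 2-fold change. ANXA2 (annexin A2) was 1196 and 1348 FPKM in wild-type libraries against 782 and 861 FPKM in knockout libraries, a log2 fold change of −0.63 (limma, adjusted p = 0.0177), and the relative AHNAK2 at 0.18 with overlapping groups (limma, adjusted p = 0.335).

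Nuclear envelope linkers held 1 called gene of 6 tested. EMD (emerin), a protein of the inner nuclear membrane, fell from 146 and 169 FPKM to 68.5 and 70.5 FPKM, a log2 fold change of −1.18 that did not stay past 2-fold in TPM (−0.50) or after the length and GC correction (−0.31). SUN2, the nuclear anchor of the nesprins, was at 0.87 (limma, adjusted p = 0.00879), short of a 2-fold change. It was called higher in TPM (1.55, limma, adjusted p = 0.00163) and after the length and GC correction (1.27, limma, adjusted p = 0.00519). Centred on long genes SUN2 was at −0.12, so its call depends on the scaling. Among other giant cytoskeletal genes 5 of 12 tested rose and 1, the dynein heavy chain DYNC1H1, fell by 1.17 on the log2 scale. In TPM 0 genes of this list were called lower, and after the length and GC correction DYNC1H1 was at −1.71. The microtubule-binding tumour suppressor APC rose from 2.45 and 1.88 FPKM to 10.9 and 9.94 FPKM (log2 fold change 2.23), and CLASP1, which stabilises microtubule ends, rose by 1.46. After the length and GC correction APC was at 1.13 and CLASP1 at 0.75.

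The mean profile of the 9 members over the 4 libraries held both rises and falls, and stood at −0.16 and −0.06 in wild-type against 0.09 and 0.13 in knockout libraries on a centred log2 scale. The 3 other tested genes closest to it, by root mean square difference of centred log2 values over 4 libraries, were DIRC2 (0.0116), LINC00969 (0.0148) and GABRA3 (0.0152). Their log2 fold changes were 0.21, 0.24 and 0.24, none of which was called. Changes of this size follow from choosing genes close to this mean profile. GABRA3 passed the filter only through its knockout libraries (1.09 and 1.11 FPKM, against 0.886 and 0.943 FPKM in wild-type libraries).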

How the data were processed

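Polyadenylated RNA of 2 wild-type and 2 TXNDC9 knockout samples of cells labelled HepG2 was sequenced on an Illumina platform. Per the labels, TopHat2 was the aligner (hg38), and the authors deposited gene-level FPKM from Cufflinks and Cuffdiff. Tool versions are not given in the sources used here. The deposited table also holds the authors' group averages and p-values, which were not used. Identifiers stood out of register with the values in the deposited table and were put back in order, while symbols were in register. FPKM carry no depth: no step worth 1 read was found, so no counting interval is given.

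Genes with an average above 1 FPKM were tested with limma 3.58.1 (R 4.3.3) on log2(FPKM + 0.1) with a variance trend, and p-values were adjusted after Benjamini and Hochberg across 13246 genes. A call needed a 2-fold change at an adjusted p below 0.01, the thresholds of the study. The alternatives were pseudocounts of 1 and 0.01, no filter, an average above 5 FPKM, rescaling to TPM, an adjusted p below 0.05, centring on the library median or on long genes, no trend, the replicate number as a block, loess corrections (span 0.3) for transcript length and GC content from GENCODE 44, and leaving out each library. Of the tested genes 134 had no transcript length. Tables and plots were made with Python 3.11.15, pandas 2.3.3, numpy 2.4.6 and matplotlib 3.10.9, and the fit was tested on simulated data.

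The 9 members were taken by symbol. All members and TXNDC9 are named, with the 2 largest changes of each partner list, the direct counterparts of members and the 3 genes closest to the mean member profile. Results for a few of these genes are not reported here. The members and lists were chosen with earlier results of these data known.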

Additional observations from a re-analysis of the deposited data

How the results depend on the processing

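Of the 9 members UTRN, FLNA and SPTAN1 kept direction and call under every setting in which they were tested, except without either knockout library, where limma called 0 genes. With each library left out in turn, members called higher numbered 0 to 2 and lower 0 to 2, partner genes 0 to 19 higher and 0 to 9 lower, and all genes 0 to 2136 higher and 0 to 2633 lower. Each 0 came from the fits without a knockout library, in which the wild-type pair alone showed the spread between replicates. The log2 fold change of FLNA was −1.87 or −2.00 without knockout replicate 1 or 2. It was −2.23 or −1.64 without wild-type replicate 1 or 2. The spread of 2 libraries a group and the unknown depth limit all values.

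With an average above 5 FPKM, 1 member (UTRN was not tested) and 1220 of all genes were called higher. Rescaled to TPM, 5 members, 28 partner genes and 4380 of all genes were called higher, and 2 partner genes and 447 of all genes lower, against 1885 higher and 2021 lower as deposited. After the length correction 1 member, 3 partner genes and 1116 of all genes were higher and 1264 of all genes lower. After the length and GC correction these were 1 member, 7 and 841 higher, and 5 partner genes and 969 of all genes lower. Centred on long genes, 1 member, 1 partner gene and 293 of all genes were higher, and 23 partner genes and 6700 of all genes lower, which follows from the centring.

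The median of the members was −0.47 after the length correction, −0.25 after the length and GC correction with or without the block, and −0.60 centred on long genes. In the same order MACF1 was −0.21, −0.14 and −0.30, DST −0.87, −0.97 and −0.95, and SPTBN1 −0.47, −0.25 and −0.60. PLEC was −0.39 after the length correction and −0.44 centred on long genes. DST was −0.10 centred on the library median and ran from −0.0651 (without knockout replicate 1) to 0.144 (without knockout replicate 2). Rescaling to TPM gave TLN1 0.55, TXNDC9 0.12 and ANXA2 0.0501. The length correction gave TXNDC9 0.0322, ACTN4 −0.12, TLN2 −0.45 and AHNAK2 −0.76. The length and GC correction gave TLN2 −0.0409 and AHNAK2 −0.0818, with or without the block. Centred on long genes ACTN4 was −0.69, SUN2 −0.12, TLN2 −0.52, VCL −0.12 and AHNAK2 −0.81. AHNAK2 ran from −0.0138 without wild-type replicate 1 to 0.382 without wild-type replicate 2. The cause was not tested.

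Across genes, the difference between the wild-type replicates and that between the knockout replicates correlated at −0.0904. With a single difference per group, this cannot show whether libraries with the same replicate number shared a culture or day. With the replicate number as a block, 2 members were higher and 2 lower, 18 partner genes higher and 9 lower, and 1960 of all genes higher and 2146 lower. The block with the length and GC correction gave 1 member, 7 partner genes and 841 of all genes higher, and 5 partner genes and 975 of all genes lower.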

Other observations

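Falls were rare among long messages. Of the 981 tested genes with transcripts of 7875 nt or more, 25 were called lower, and FLNA and SPTAN1 were among them. Others, named after their values were seen, were COL7A1, the anchoring fibril collagen, at 60.3 and 95.5 FPKM in wild-type libraries against 21.2 and 20.5 FPKM in knockout libraries (log2 fold change −1.86), and the mechanically gated channel PIEZO1 at 162 and 230.2 FPKM against 77.2 and 81.1 FPKM (−1.29). The laminin chain LAMA5 (−1.17), the histone methyltransferase KMT2B (−1.72) and the ubiquitin ligase UBR4 (−1.43) also fell. These falls are in FPKM as deposited, and in TPM the calls lower over all tested genes dropped from 2021 to 447. FLNA and SPTAN1 were still called lower in TPM, but TPM values of the other genes named here are not given. As for FLNA and SPTAN1, wild-type replicate 2 exceeded replicate 1 for COL7A1 (by 0.66 on the log2 scale), UBR4 (0.54) and PIEZO1 (0.51), but by 0.06 for LAMA5 and 0.04 for KMT2B.

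EMD, the emerin gene, lies 4.6 kb from FLNA on chromosome X (154379273 to 154381574, plus strand), and both were called lower. After the length and GC correction EMD was at −0.31 and FLNA at −1.92.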
